A study of Mus musculus with 10 samples.

Results

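NRF2 and the glutathione, thioredoxin and other antioxidant enzymes were followed as a set of 36 named genes, chosen by symbol, of 48471 genes with summed counts in 10 RNA-seq libraries. All 36 were found, and all 36 passed the filter on low counts. The libraries came from myofibroblastic cancer-associated fibroblasts (myCAFs), the contractile, matrix-producing stromal cells of a tumour, sorted by surface CD90 into a CD90-negative and a CD90-positive fraction. The tumours were pancreatic ductal adenocarcinomas grown in the pancreas of male C57BL/6J mice from transplanted KPC T-LOH organoids. The sources used here do not spell out T-LOH, nor do they give the age of the mice or how myCAFs were gated apart from CD90. Each fraction had 5 libraries, numbered here by tumour pool, and both fractions of a pool carry the same animal numbers. Pools 1 to 5 name 4, 1, 2, 3 and 1 animals, 11 in all, while the design text speaks of 5 mice, so n is given as pools.

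NRF2 (Nfe2l2) is a transcription factor that KEAP1 marks for degradation until oxidants or electrophiles modify KEAP1. NRF2 then binds antioxidant response elements with a small MAF protein and raises genes that make glutathione, reduce thioredoxin and conjugate reactive compounds, while BACH1 represses some of the same genes. Its activity is set mainly by protein stability, so its mRNA level is not a readout of it. Superoxide dismutases turn superoxide into hydrogen peroxide, which catalase, glutathione peroxidases and peroxiredoxins then remove.

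Thy1, the gene of the sorted antigen CD90, had 16.0, 10.2, 8.06, 5.98 and 2.07 CPM in CD90-negative libraries 1 to 5, against 97.3, 102, 39.2, 89.8 and 117 CPM in CD90-positive libraries 1 to 5 (CPM, counts scaled to a normalised library of 1000000). The groups did not overlap, with a log2 fold change of -3.50 (SE 0.50, adjusted p = 0.00561). This and all following adjusted p values are from edgeR's quasi-likelihood test with the pool as a block and Benjamini-Hochberg adjustment over all genes tested. SE is the standard error implied by that test, the size of the log2 fold divided by the square root of its F statistic. Depth ran from 33.3 M to 47.7 M estimated counts in CD90-negative and from 11.7 M to 38.2 M in CD90-positive libraries. Nuclear protein-coding genes held only 3.71 M to 19.8 M of these in CD90-negative and 4.57 M to 28.5 M in CD90-positive libraries. By that measure the CD90-negative library was the shallower in pools 2, 3 and 4 and the deeper in pools 1 and 5. Mitochondrial rRNA took 35.6% to 84.4% of gene counts in CD90-negative and 10.5% to 44.8% in CD90-positive libraries and was higher in 5 of 5 pools. The fractions also differed in markers of cell type. Fibroblast markers fell in 9 of 10 genes and summed to between 4055 and 20460 CPM in CD90-negative libraries, against 32440 to 53960 CPM in CD90-positive libraries. The 9 include Thy1 itself, whose fall follows from the sort. Collagens made up nearly all of these sums, with Col1a1, Col1a2 and Col3a1 at 24080, 10710 and 18370 CPM in CD90-positive library 1, where the list summed to 53960 CPM. Myofibroblast markers fell in 6 of 6 genes, with sums of 113 to 394 CPM in CD90-negative and 809 to 2027 CPM in CD90-positive libraries. Cancer epithelial markers rose in 7 of 10 genes and summed to between 720.2 and 3018 CPM in CD90-negative libraries, against 182 to 1636 CPM in CD90-positive libraries, with none of the 10 at 0 throughout a fraction. Of 6 endothelial markers 2 rose, namely Pecam1 and Cdh5. Tek, Vwf and Egfl7 had positive folds, and Kdr a log2 fold change of -0.70, that did not pass. CD90-negative library 2 held 254 CPM of the 6 markers, of which Vwf made up 125 CPM. The other CD90-negative libraries held 31.8 to 57.8 CPM and the CD90-positive libraries 27.0 to 37.5 CPM. None of 5 macrophage and neutrophil markers tested passed, with 1 at an unadjusted p under 0.05, and they summed to at most 29.7 CPM in CD90-negative and 13.0 CPM in CD90-positive libraries. Of 6 pericyte and smooth muscle markers Des fell and the other 5 did not pass, although all 6 had an unadjusted p under 0.05, and CD90-negative library 2 held 395 CPM of them, against 16.2 to 56.7 CPM in the other CD90-negative and 119 to 385 CPM in CD90-positive libraries. Of 4 mesothelial markers tested Msln rose (log2 fold change 1.40), while Wt1, Upk3b and Lrrn4 had folds of -1.96, -2.04 and -1.32 that did not pass, and the list summed to between 152 and 243 CPM in CD90-negative and 165 and 282 CPM in CD90-positive libraries. Of 2 acinar markers tested Ctrb1 rose, and the list summed to between 1.07 and 35.1 CPM in CD90-negative and 0.121 and 4.03 CPM in CD90-positive libraries. The part of these markers and of mitochondrial rRNA in the results below was not tested. Fewer cells of a type and less RNA per cell cannot be told apart in bulk libraries.

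The antioxidant genes split in direction, and among transferases and peroxiredoxins the split ran within the family. In the CD90-negative fraction 6 of 36 genes rose, namely Gclc, Gsr, Gsta4, Gsto1, Prdx1 and Prdx2, and 8 fell, namely Txnrd1, Srxn1, Gpx3, Gpx8, Gstm2, Prdx6, Sod2 and Sod3. Of 15378 genes tested, 5.83% rose and 7.05% fell (12.9% in either direction), against 16.7% and 22.2% of the antioxidant genes. The antioxidant genes were more abundant than most, with a median mean log2 CPM of 4.20, against 2.70 over all genes tested. Above a floor of 3 in mean log2 CPM, 13 of 27 antioxidant genes (48.15%) were called and 20.6% of all genes. The antioxidant genes were chosen with earlier results of these data known, so these shares are a description and not a test of the set. The median log2 fold was 0.11 over the 36 genes and 0.036 over all genes, and 20 of the 36 had a positive fold. Of the 14 called genes, 7 changed at least 2-fold, and all 14 moved the same way in 5 of 5 pools. They were called by a test on these same pools, so that agreement is no separate support. In 5 of the 36 genes every CD90-negative library lay above every CD90-positive library, and in 3 below, where 3.32% and 4.62% of all genes did so. Without pools 4 and 5, which include the shallowest library of each fraction by nuclear protein-coding counts, none of the 14 was called, although 9 of the 36 genes were higher and 9 lower at an unadjusted p under 0.05. With mitochondrial rRNA share, which was higher in the CD90-negative fraction of every pool, added as a covariate none was called either, with 1 higher and 2 lower at an unadjusted p under 0.05. The standard errors grew in that fit while 13 of the 14 folds kept their sign, all but that of Prdx6. Gpx3, for example, had a log2 fold change of -1.33 with an SE of 0.82, against 0.26 in the fit without the covariate, and Thy1 one of -4.12 with an SE of 1.70. In the same fit edgeR called 0 genes over the whole table (490 higher and 392 lower at an unadjusted p under 0.05).

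**Figure D1:**
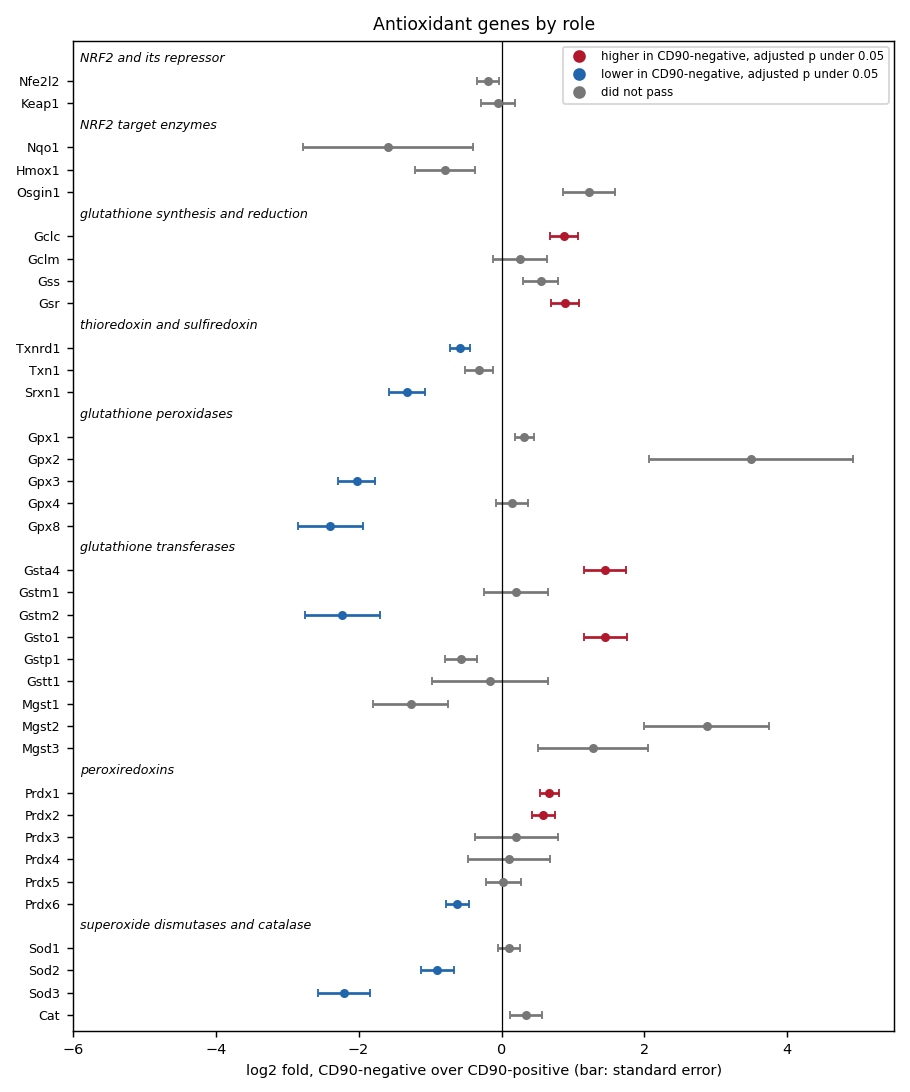
Log2 fold of each of the 36 antioxidant genes, CD90-negative over CD90-positive, with its standard error, grouped by role. At an adjusted p under 0.05 the 6 red points are higher, and the 8 blue points lower, in CD90-negative cells, and the transferases and peroxiredoxins hold both colours.

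NRF2 and KEAP1 themselves did not pass the test in either direction. Nfe2l2 had 44.4, 44.9, 78.2, 41.4 and 38.6 CPM in CD90-negative libraries 1 to 5, against 47.2, 52.0, 68.1, 48.2 and 59.7 CPM in CD90-positive libraries 1 to 5. The groups overlapped, with a log2 fold change of -0.19 (SE 0.16, adjusted p = 0.500), and CD90-negative library 3 was the highest of all 10. Keap1 had 23.2, 17.7, 13.4, 10.7 and 11.2 CPM in CD90-negative libraries 1 to 5, against 17.0, 12.4, 17.0, 17.4 and 12.9 CPM in CD90-positive libraries 1 to 5. Its groups overlapped too, with a log2 fold change of -0.0512 (SE 0.24, adjusted p = 0.922), and the sign of this fold turned without pool 3 or 4. None of the 3 genes listed here as NRF2 target enzymes passed, while genes of glutathione and thioredoxin that NRF2 also raises follow by role. Nqo1, a quinone reductase, was hardly detected, with 0, 0.771, 0.891, 0 and 0.259 CPM in CD90-negative libraries 1 to 5, against 0.233, 1.39, 0.799, 0.307 and 0.589 CPM in CD90-positive libraries 1 to 5. It had at most 45 reads in a CD90-negative and 56 in a CD90-positive library (log2 fold change -1.59, SE 1.19, adjusted p = 0.451). Hmox1, which encodes haem oxygenase 1 and is repressed by BACH1, had 13.4, 11.6, 21.8, 21.4 and 6.58 CPM in the CD90-negative libraries, against 16.7, 65.5, 24.2, 15.4 and 19.6 CPM in the CD90-positive libraries. CD90-positive library 2 stood far above the other 9, and the fold did not pass (-0.79, SE 0.42, adjusted p = 0.280). Osgin1, an oxidative stress response gene, averaged 15.0 ± 7.00 CPM across CD90-negative libraries and 6.38 ± 3.45 CPM across CD90-positive libraries (SD, n = 5). It was higher in 5 of 5 pools and narrowly missed the threshold (log2 fold change 1.22, SE 0.37, adjusted p = 0.0570), which it passed in DESeq2 (adjusted p = 0.00731) and limma-voom (adjusted p = 0.0146). Its groups overlapped, and DESeq2 called more genes over the whole table than the main fit.

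Sequences before the start sites are shown for the called genes whose window holds the core of the antioxidant response element, and for Mgst1, the next by p, to let the element be seen beside the direction of each gene. RefSeq promoter windows (GRCm38.p6, 250 bases before to 50 after a start) were at hand for 30 of the 36 genes, the others being Hmox1, Prdx6, Gclc, Gsta4, Gsr and Sod3. The core TGACNNNGC, read on both strands, was found in 7 of the 30 genes (23.3%), namely Nfe2l2, Srxn1, Gclm, Prdx1, Mgst1, Txnrd1 and Sod1, and in 14.0% of all genes with a window. The AP-1 site TGANTCA, which can share bases with the core, was found in 5 of the 30 (16.7%), namely Srxn1, Mgst2, Prdx1, Osgin1 and Gstp1, and in 8.97% of all genes. The 250 bases before the start follow, 5′ to 3′ along the gene, with both motifs in capitals.
Srxn1, chr2:152105274-152105523, plus strand: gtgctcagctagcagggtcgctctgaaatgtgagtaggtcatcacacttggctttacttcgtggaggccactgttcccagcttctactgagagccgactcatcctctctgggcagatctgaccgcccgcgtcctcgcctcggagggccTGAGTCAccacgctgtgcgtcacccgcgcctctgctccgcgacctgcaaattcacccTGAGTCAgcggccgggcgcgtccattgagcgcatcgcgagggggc
Prdx1, chr4:116685349-116685598, plus strand: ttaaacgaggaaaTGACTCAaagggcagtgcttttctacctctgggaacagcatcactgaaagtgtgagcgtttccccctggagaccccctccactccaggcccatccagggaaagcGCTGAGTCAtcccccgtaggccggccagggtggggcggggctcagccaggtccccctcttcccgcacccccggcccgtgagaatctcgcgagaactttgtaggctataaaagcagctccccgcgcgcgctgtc
Txnrd1, chr10:82858956-82859205, plus strand: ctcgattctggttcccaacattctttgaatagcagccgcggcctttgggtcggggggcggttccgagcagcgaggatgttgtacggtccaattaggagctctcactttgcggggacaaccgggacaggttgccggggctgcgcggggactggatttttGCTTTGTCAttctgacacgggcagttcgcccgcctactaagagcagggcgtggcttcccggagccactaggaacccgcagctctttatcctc
Mgst1, chr6:138140277-138140526, plus strand: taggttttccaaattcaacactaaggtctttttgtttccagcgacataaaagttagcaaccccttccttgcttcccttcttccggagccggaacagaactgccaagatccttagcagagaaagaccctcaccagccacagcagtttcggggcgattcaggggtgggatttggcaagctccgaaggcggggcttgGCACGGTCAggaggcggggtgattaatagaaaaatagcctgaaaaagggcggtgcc
In Prdx1, Txnrd1 and Mgst1 the core reads on the opposite strand, and positions count to its leftmost printed base. In Prdx1 the core begins 133 bases before the start and shares its bases with an AP-1 site, and a further AP-1 site begins 237 bases before the start. In Srxn1 the capitals are AP-1 sites beginning 102 and 45 bases before the start, and its match to TGACNNNGC lies after the start. The site 45 bases before the start runs on into gc, so it differs from that core only by a G in place of the C. Such variants of the core were not searched. In Txnrd1, in 1 of 3 windows, the core begins 92 bases before the start, and in Mgst1 56 bases before it. Prdx1 rose while Srxn1 and Txnrd1 fell, so genes with a match stood on both sides. A match is a description of the letters in the window and not evidence of binding.

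Of the 4 genes of glutathione synthesis and reduction 2 rose and none fell. Gclc, the catalytic subunit of glutamate-cysteine ligase, the rate-limiting enzyme of glutathione synthesis, had 53.7, 36.3, 55.0, 39.9 and 61.6 CPM in CD90-negative libraries 1 to 5, against 21.4, 29.2, 20.8, 25.9 and 38.4 CPM in CD90-positive libraries 1 to 5. CD90-positive library 5 reached into the range of the CD90-negative libraries, but each pool had more in its CD90-negative fraction, with a log2 fold change of 0.87 (SE 0.20, adjusted p = 0.0181). Gsr, the reductase that regenerates glutathione from its disulfide, had 108, 66.6, 97.0, 84.9 and 84.5 CPM in CD90-negative libraries 1 to 5, against 30.4, 39.9, 62.9, 51.7 and 57.8 CPM in CD90-positive libraries 1 to 5. The groups did not overlap, with a log2 fold change of 0.89 (SE 0.20, adjusted p = 0.0182), and pool 1 had the widest gap, at a log2 difference of 1.82 against 0.55 to 0.73 in the other pools. Gclm, the modifier subunit of the ligase, had 12.9, 9.29, 11.3, 8.33 and 8.72 CPM in the CD90-negative libraries, against 3.73, 8.84, 7.21, 10.0 and 16.4 CPM in the CD90-positive libraries. Its groups overlapped and its pools pointed both ways (log2 fold change 0.25, SE 0.38, adjusted p = 0.730), and the sign turned without pool 1. Gss, which adds glycine in the last step of synthesis, averaged 12.8 ± 2.30 CPM across CD90-negative libraries and 8.63 ± 1.04 CPM across CD90-positive libraries (SD, n = 5) without overlap between groups, yet did not pass (log2 fold change 0.55, SE 0.24, adjusted p = 0.180). Without pool 1 neither Gclc (adjusted p = 0.0950) nor Gsr (0.0579) was called, Gsr was not called without pool 4 (0.0593), and with an offset for transcript length neither passed (0.222 for Gclc and 0.0936 for Gsr).

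Of the 3 genes listed under thioredoxin and sulfiredoxin 2 fell and none rose. Txnrd1, the cytosolic thioredoxin reductase and a selenoprotein, had 56.8, 45.0, 74.9, 41.0 and 57.4 CPM in CD90-negative libraries 1 to 5, against 84.7, 74.5, 92.4, 72.3 and 81.2 CPM in CD90-positive libraries 1 to 5. The ranges overlapped only through CD90-negative library 3, and every pool was lower, with a log2 fold change of -0.58 (SE 0.14, adjusted p = 0.0229). Srxn1, sulfiredoxin, which repairs over-oxidised peroxiredoxins, had 9.84, 11.3, 29.5, 9.40 and 6.80 CPM in CD90-negative libraries 1 to 5, against 35.6, 29.5, 35.1, 24.9 and 22.6 CPM in CD90-positive libraries 1 to 5. CD90-negative library 3 lay among the CD90-positive libraries and the other 4 far below them, with a log2 fold change of -1.33 (SE 0.25, adjusted p = 0.00887). Txn1, thioredoxin itself, averaged 23.0 ± 10.6 CPM across CD90-negative libraries and 27.1 ± 8.12 CPM across CD90-positive libraries (SD, n = 5), with a fold that did not pass (-0.31, adjusted p = 0.365). In CD90-negative library 3 the fibroblast markers summed to 20460 CPM, the most of that fraction, and the cancer epithelial markers to 720.2 CPM, the least. Txnrd1 was not called without pool 1, 2 or 4 (adjusted p = 0.0984, 0.0750 and 0.0659) or without the block for the pool (0.0889). Srxn1 was not called without pool 1 (0.0558) or without the block (0.0790), and with a transcript length offset neither passed (0.0623 for Txnrd1 and 0.0877 for Srxn1).

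Among the glutathione peroxidases, which reduce peroxides with glutathione, the secreted and the endoplasmic reticulum members fell, while Gpx1, Gpx2 and Gpx4 did not pass. Gpx3, the secreted plasma peroxidase, had 81.1, 46.4, 105, 57.5 and 40.2 CPM in CD90-negative libraries 1 to 5, against 322, 313, 183, 287 and 188 CPM in CD90-positive libraries 1 to 5. Every CD90-negative library lay below every CD90-positive one, with a log2 fold change of -2.03 (SE 0.26, adjusted p = 0.00302), and it had the smallest p of the 36 genes. Gpx8, a peroxidase of the endoplasmic reticulum that carries cysteine in place of selenocysteine, had 4.48, 1.84, 15.8, 2.99 and 1.22 CPM in CD90-negative libraries 1 to 5, against 16.3, 16.5, 25.1, 16.7 and 18.6 CPM in CD90-positive libraries 1 to 5. Here too the groups did not overlap (log2 fold change -2.40, SE 0.45, adjusted p = 0.00970), but CD90-negative library 3, at 15.8 CPM, came close to the lowest CD90-positive library. Gpx1, the ubiquitous cytosolic enzyme, averaged 70.9 ± 8.68 CPM across CD90-negative libraries and 56.6 ± 4.71 CPM across CD90-positive libraries (SD, n = 5). Its CD90-negative libraries all lay above the CD90-positive ones, but the fold was small and did not pass (log2 fold change 0.32, SE 0.14, adjusted p = 0.172). Gpx4, which reduces lipid hydroperoxides and holds off ferroptosis, averaged 31.6 ± 6.51 CPM across CD90-negative libraries and 29.1 ± 8.88 CPM across CD90-positive libraries (SD, n = 5), with a log2 fold change of 0.15 (SE 0.22, adjusted p = 0.730), and its sign turned without pool 5. Gpx2, the peroxidase of gut epithelium, had 6.71, 0.335, 0.752, 9.61 and 10.1 CPM in the CD90-negative libraries, against 0.652, 1.06, 0.166, 0.123 and 0 CPM in the CD90-positive libraries. Only libraries of the CD90-negative fraction exceeded 2 CPM, those of pools 1, 4 and 5, while pool 2 pointed the other way, and the fold did not pass (log2 fold change 3.49, SE 1.43, adjusted p = 0.158). Cancer epithelial markers in CD90-negative pools 1, 4 and 5 summed to 2543, 2303 and 3018 CPM, above the 1329 and 720.2 CPM of pools 2 and 3. CD90-positive library 5, at 0 CPM of Gpx2, held 1636 CPM of these markers, more than CD90-negative libraries 2 and 3. The part of these markers in the Gpx2 values was not tested. Gpx8 was not called without the block (0.0962), and Gpx3 and Gpx8 were called whichever single pool was left out.

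Glutathione transferases, which couple glutathione to reactive compounds, changed in both directions, with 2 of 9 higher and 1 lower. Gsto1, an omega-class transferase that also acts as a thiol reductase, had 94.5, 38.6, 33.5, 80.1 and 86.8 CPM in CD90-negative libraries 1 to 5, against 13.6, 30.4, 14.1, 30.2 and 30.0 CPM in CD90-positive libraries 1 to 5. The groups did not overlap (log2 fold change 1.46, SE 0.30, adjusted p = 0.0162), with the narrowest gap in pool 2. Gsta4, the alpha-class enzyme for the lipid peroxidation product 4-hydroxynonenal, had 44.3, 7.98, 8.99, 25.3 and 77.5 CPM in CD90-negative libraries 1 to 5, against 8.11, 6.32, 4.19, 6.29 and 30.0 CPM in CD90-positive libraries 1 to 5. The levels in each fraction spread widely, with pool 5 highest in both, and only the comparison within pools separated them (log2 fold change 1.45, SE 0.29, adjusted p = 0.0115). CD90-positive library 5, the highest of its fraction for Gsta4, also held the most cancer epithelial markers of that fraction, at 1636 CPM against 182 to 559 CPM in the others. Gstm2, a mu-class enzyme, went the other way, with 3.61, 1.94, 14.5, 3.20 and 1.07 CPM in CD90-negative libraries 1 to 5, against 11.8, 15.9, 16.6, 15.3 and 17.7 CPM in CD90-positive libraries 1 to 5. All but CD90-negative library 3 lay far below the CD90-positive libraries (log2 fold change -2.23, SE 0.52, adjusted p = 0.0254). Its close paralog Gstm1 averaged 5.72 ± 1.91 CPM across CD90-negative libraries and 5.95 ± 4.98 CPM across CD90-positive libraries (SD, n = 5), with a fold of no fixed sign (log2 fold change 0.21, SE 0.45, adjusted p = 0.823), which turned without pool 2 or 3 or without the block. Reads that match both paralogs were divided by the authors' model. How many did so was not examined, so the contrast between Gstm1 and Gstm2 is uncertain. Gstp1, the pi-class enzyme, averaged 34.2 ± 27.3 CPM across CD90-negative libraries and 44.4 ± 18.6 CPM across CD90-positive libraries (SD, n = 5) and did not pass (log2 fold change -0.57, SE 0.22, adjusted p = 0.130). Gstt1, of the theta class, was at 1.51 ± 1.16 CPM in CD90-negative libraries against 1.27 ± 0.570 CPM in CD90-positive ones (SD, n = 5 each; log2 fold change -0.16, SE 0.82, adjusted p = 0.928), and the sign of its fold turned without pool 2 or 3 or without the block. The microsomal members also pointed both ways without passing, with a log2 fold of -1.27 for Mgst1 (adjusted p = 0.162), 2.87 for Mgst2 (0.0604) and 1.28 for Mgst3 (0.339). Mgst2 passed in DESeq2 (adjusted p = 0.000638) and limma-voom (adjusted p = 0.0315), from 17 to 171 reads in CD90-negative and 1 to 64 in CD90-positive libraries. Calls were lost for Gsto1 without pool 4 or 5 (adjusted p = 0.0555 and 0.0578), for Gsta4 without pool 1 or 4 (0.0586 and 0.0579) or without the block (0.231), and for Gstm2 without pool 1, 2 or 4 (0.0796, 0.0895 and 0.0723), without the block (0.114) or in limma-voom (0.0932).

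Peroxiredoxins, abundant thiol peroxidases, gave small changes in both directions, with 2 of 6 higher and 1 lower. Prdx1, the main cytosolic member, had 74.7, 62.5, 90.6, 92.2 and 65.6 CPM in CD90-negative libraries 1 to 5, against 44.4, 44.0, 61.4, 52.4 and 40.1 CPM in CD90-positive libraries 1 to 5. The groups came within a narrow margin of each other without overlapping (log2 fold change 0.67, SE 0.13, adjusted p = 0.0108), and the 5 pools had like gaps, with log2 differences from 0.50 to 0.81. Prdx2, a cytosolic relative best known from red cells, had 52.4, 51.4, 55.1, 68.5 and 35.5 CPM in CD90-negative libraries 1 to 5, against 27.9, 35.4, 47.1, 39.3 and 25.7 CPM in CD90-positive libraries 1 to 5. The groups overlapped while each pool was higher (log2 fold change 0.59, SE 0.16, adjusted p = 0.0356), and erythroid markers summed to at most 12.7 CPM in a CD90-negative and 12.3 CPM in a CD90-positive library. Prdx6, which uses a single catalytic cysteine and glutathione, had 22.1, 33.3, 42.6, 22.4 and 21.9 CPM in CD90-negative libraries 1 to 5, against 32.9, 60.1, 55.0, 43.6 and 27.6 CPM in CD90-positive libraries 1 to 5. It was lower in each pool although the groups overlapped (log2 fold change -0.62, SE 0.16, adjusted p = 0.0334). The mitochondrial Prdx3, the endoplasmic reticulum Prdx4 and Prdx5, found in several compartments, did not pass, with log2 folds of 0.21, 0.11 and 0.0232 and adjusted p values of 0.863, 0.931 and 0.966. The sign turned without pool 5 for Prdx3 and Prdx4 and without pool 1 or 4 for Prdx5. Calls were lost for Prdx1 without pool 1 or 4 (adjusted p = 0.0650 and 0.0528), for Prdx2 without pool 1, 2, 4 or 5 (0.162, 0.0837, 0.144 and 0.0691) and for Prdx6 without pool 1, 2 or 4 (0.116, 0.108 and 0.0976). Without the block Prdx2 (0.134) and Prdx6 (0.191) were not called, nor with a transcript length offset (0.151 and 0.0607).

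Of the superoxide dismutases the extracellular and the mitochondrial enzyme fell. Sod3, the secreted copper-zinc enzyme that binds the matrix, had 14.5, 19.5, 38.6, 12.3 and 6.43 CPM in CD90-negative libraries 1 to 5, against 76.8, 79.4, 59.5, 72.3 and 68.5 CPM in CD90-positive libraries 1 to 5. The groups stood well apart, with CD90-negative library 3 nearest to the CD90-positive ones (log2 fold change -2.21, SE 0.36, adjusted p = 0.00730). Sod2, the manganese enzyme of mitochondria and a known NF-kB target, had 15.8, 10.9, 27.2, 20.4 and 8.72 CPM in CD90-negative libraries 1 to 5, against 27.2, 26.8, 35.6, 26.1 and 27.9 CPM in CD90-positive libraries 1 to 5. Only CD90-negative library 3 entered the CD90-positive range (log2 fold change -0.90, SE 0.23, adjusted p = 0.0329). Sod1, the cytosolic copper-zinc enzyme, averaged 43.5 ± 6.94 CPM across CD90-negative libraries and 40.1 ± 2.32 CPM across CD90-positive libraries (SD, n = 5) (log2 fold change 0.10, SE 0.15, adjusted p = 0.718), and its sign turned without pool 4. Cat, catalase of peroxisomes, averaged 20.2 ± 4.50 CPM across CD90-negative libraries and 16.0 ± 3.68 CPM across CD90-positive libraries (SD, n = 5) and did not pass (log2 fold change 0.34, SE 0.23, adjusted p = 0.382). The call of Sod2 was lost without pool 1, 2 or 5 (adjusted p = 0.108, 0.103 and 0.0717), without the block (0.119) and with a transcript length offset (0.0936). That of Sod3 held whichever single pool was left out.

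**Figure D2:**
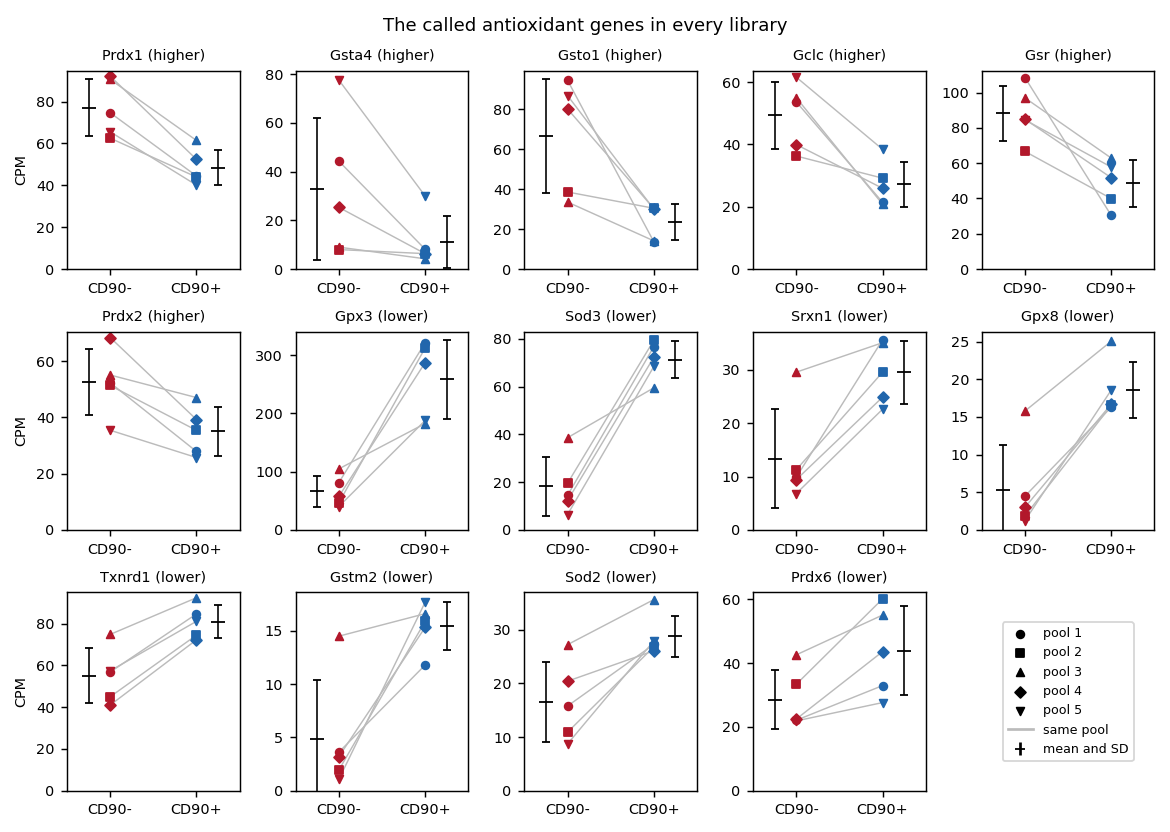
CPM of the 14 called antioxidant genes in each library, with CD90-negative on the left (red) and CD90-positive on the right (blue), marker shapes for pools and grey lines joining a pool. Black bars give the mean and SD of 5 libraries, cut at 0 where the SD passes below it. Pool 3 (triangles) has the flattest line in 6 of the 8 genes that were lower.

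The make-up of each enzyme family was compared on a scale per transcript length, as TPM rescaled to sum to 1000000 over nuclear protein-coding genes, and is given as a description (mean ± SD, n = 5 libraries a fraction). The lead among glutathione peroxidases differed between fractions. Gpx3 made up 23.7% ± 5.03 in CD90-negative libraries and 56.0% ± 7.70 in CD90-positive ones, and Gpx1 45.6% ± 5.26 in CD90-negative libraries and 22.5% ± 5.14 in CD90-positive ones, with no overlap of libraries for either. Gpx4 made up 23.8% ± 2.50 in CD90-negative libraries and 12.6% ± 4.32 in CD90-positive ones of the same sum. The family summed to 868 ± 195 TPM in CD90-negative libraries and 1352 ± 193 TPM in CD90-positive ones. Among superoxide dismutases the cytosolic Sod1 made up 83.3% ± 6.73 in CD90-negative libraries and 66.6% ± 1.87 in CD90-positive ones, while Sod3 made up 5.19% ± 3.64 in CD90-negative libraries and 16.4% ± 1.67 in CD90-positive ones. Prdx5 and Prdx1 were the most abundant peroxiredoxins, with Prdx5 at 33.8% ± 6.70 in CD90-negative libraries and 38.8% ± 7.75 in CD90-positive ones and Prdx1 at 30.6% ± 2.55 in CD90-negative libraries and 21.1% ± 4.46 in CD90-positive ones. Among transferases Gsto1 took 36.1% ± 13.4 in CD90-negative libraries and 14.6% ± 6.42 in CD90-positive ones, and Gstp1 27.1% ± 20.3 in CD90-negative libraries and 46.0% ± 14.6 in CD90-positive ones, with wide spread in both. Over all 36 genes Prdx5 had the highest mean in the CD90-negative fraction, at 450.1 ± 139 TPM, and Gpx3 in the CD90-positive fraction, at 766 ± 196 TPM. Nfe2l2 itself stood at 106 ± 36.5 TPM in CD90-negative libraries and 114 ± 17.4 TPM in CD90-positive ones.

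**Figure D3:**
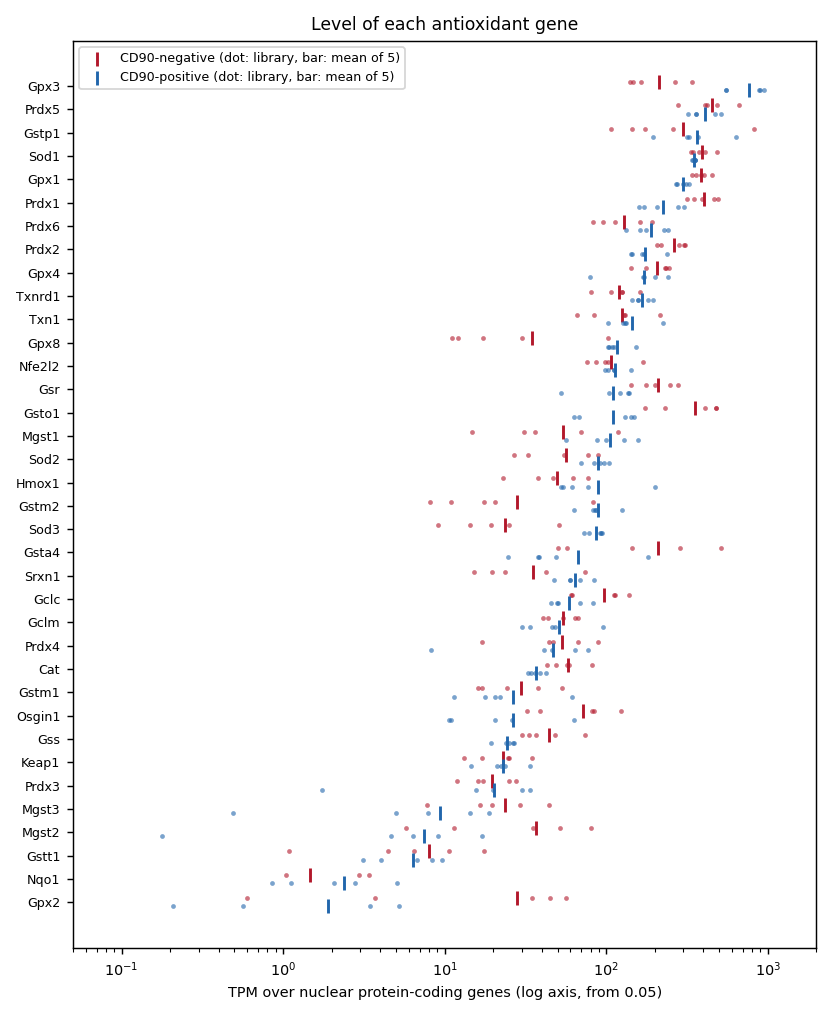
Level of each antioxidant gene as TPM rescaled to nuclear protein-coding genes (log axis), ordered by the CD90-positive mean, with the CD90-negative fraction in red above the CD90-positive fraction in blue. Dots are libraries, those under 0.05 TPM not drawn, and bars are means of 5. The dots of Gpx3 and Sod3 lie apart between fractions, and those of Sod1, Prdx5 and Nfe2l2 overlap.

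The pools did not show the differences equally. Of the 8 genes that fell, 6 had their smallest log2 difference in pool 3 (0.5 CPM added), 1 in pool 4 and 1 in pool 5. Gpx8, for instance, differed by -1.76, -2.86, -0.65, -2.30 and -3.47 in pools 1 to 5, and Sod3 by -2.37, -1.996, -0.62, -2.51 and -3.32. The median over fibroblast markers was also smallest in size in pool 3, at -2.23, -2.86, -0.77, -1.85 and -3.36, and that over myofibroblast markers was -2.72, -1.89, -1.87, -3.29 and -3.97. Of the 6 genes that rose, 4 had their smallest difference in pool 2, where the median over cancer epithelial markers was 0.93. Over pools 1 to 5 that marker median was 3.14, 0.93, 2.14, 2.29 and 0.95. Gsto1 differed by 2.75, 0.34, 1.22, 1.39 and 1.52 and Gsta4 by 2.38, 0.31, 1.02, 1.93 and 1.36 in the same pools, and Gclc by 1.30, 0.31, 1.38, 0.61 and 0.67. Txnrd1 was more even, at -0.57, -0.72, -0.30, -0.81 and -0.50. The median over all genes tested lay between -0.057 and 0.10 in every pool.

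**Figure D4:**
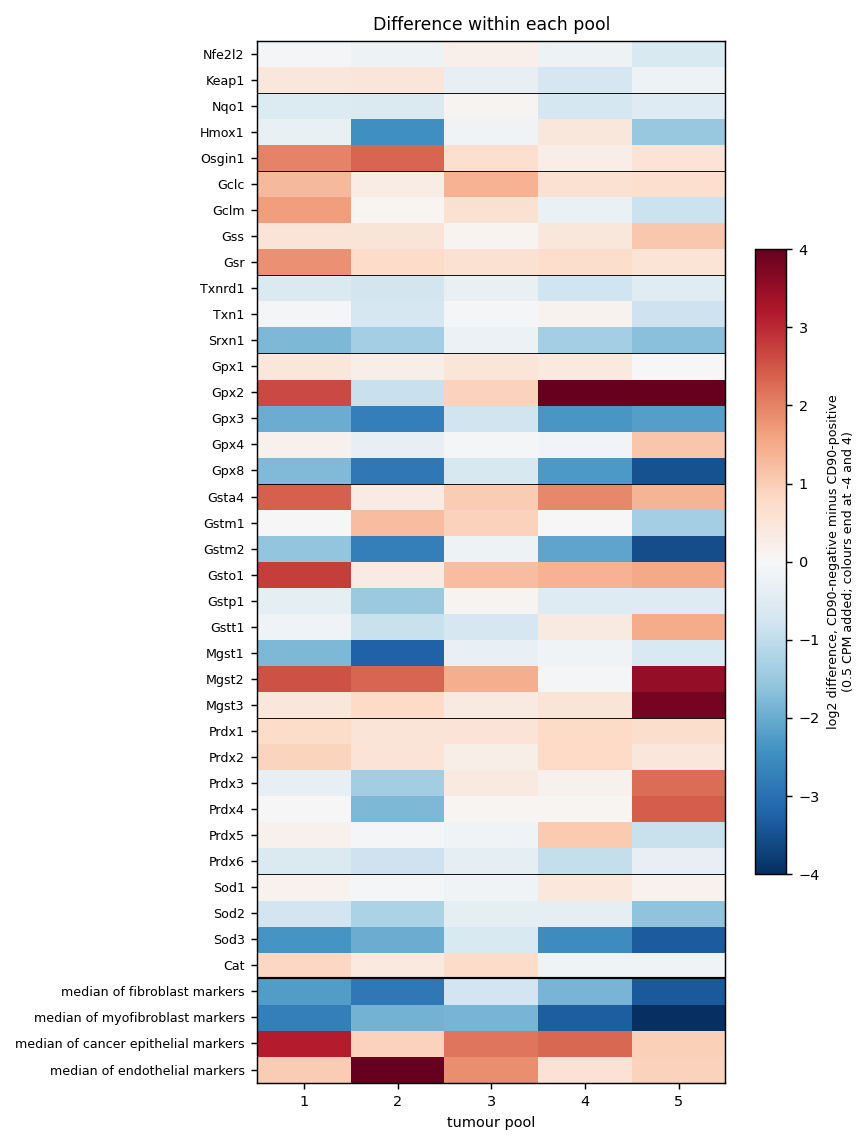
Log2 difference of CPM, CD90-negative minus CD90-positive, in each of 5 tumour pools (columns) for the 36 antioxidant genes and, under the heavy line, the medians of 4 marker lists. Red is higher and blue lower in the CD90-negative fraction. Gpx3, Gpx8, Gstm2 and Sod3 are blue in all pools and palest in pool 3, and Gsto1 and Gsta4 are red in all pools and palest in pool 2.

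Other genes around the pathway, from lists of 57 genes of which 55 were tested, had 6 that rose and 3 that fell (16.4% called, against 12.9% of all genes tested). The repressor Bach1, which competes with NRF2 for its sites, fell, with 31.8, 32.2, 89.2, 42.0 and 25.05 CPM in CD90-negative libraries 1 to 5, against 78.7, 82.4, 113, 73.3 and 49.4 CPM in CD90-positive libraries 1 to 5. CD90-negative library 3 again lay inside the CD90-positive range (log2 fold change -0.96, SE 0.18, adjusted p = 0.00782). Nfe2l1, the NRF2 relative that controls proteasome genes, was lower without overlap, at 91.0 ± 8.27 CPM across CD90-negative libraries and 129 ± 14.7 CPM across CD90-positive libraries (SD, n = 5; log2 fold change -0.50, SE 0.13, adjusted p = 0.0330). The other 6 partners, namely Cul3, Rbx1, Maff, Mafg, Mafk and Sqstm1, did not pass, with log2 folds between -0.24 and 0.35. Of 9 tested genes of cystine uptake and glutathione turnover 3 rose. They were Ggct, which cleaves gamma-glutamyl amino acids (log2 fold change 1.39, SE 0.25, adjusted p = 0.00771), Ggt1, which starts the breakdown of extracellular glutathione (log2 fold change 4.19, SE 0.93, adjusted p = 0.0171), and the exporter Abcc4 (log2 fold change 1.66, SE 0.37, adjusted p = 0.0227). Ggt1 was at 4.78, 17.0, 0.0594, 3.42 and 2.14 CPM in CD90-negative libraries and at most 0.419 CPM in a CD90-positive library, and Abcc4 was lower in pool 5 and higher in the other 4. The cystine transporter Slc7a11 had 4.10, 0, 1.11, 1.602 and 4.58 CPM in the CD90-negative libraries, against 0.652, 0.619, 0.317, 0.614 and 4.42 CPM in the CD90-positive libraries, with no call (log2 fold change 0.71, SE 1.15, adjusted p = 0.754). Of 7 NADPH-supplying genes Me1, the cytosolic malic enzyme, rose (63.0 ± 24.0 CPM across CD90-negative libraries and 26.7 ± 12.1 CPM across CD90-positive libraries; SD, n = 5; log2 fold change 1.24, SE 0.27, adjusted p = 0.0159), and G6pdx and Pgd of the pentose phosphate pathway did not pass (-0.0627 and 0.0600). Of 10 other detoxifying, haem and iron genes the aldo-keto reductase Akr1b8 rose (log2 fold change 0.71, SE 0.18, adjusted p = 0.0283). Its groups all but met, at 27.36 CPM in CD90-negative library 3 and 27.35 CPM in CD90-positive library 4. Of 16 other thiol redox genes none passed, with 2 at an unadjusted p under 0.05. Among 5 tested sources of superoxide and peroxide, Duox2, an epithelial oxidase, had 16.2, 0.771, 3.27, 4.38 and 11.4 CPM in the CD90-negative libraries, against 0.0466, 1.02, 0.0754, 0.0614 and 0 CPM in the CD90-positive libraries, where it had 0 to 41 reads. It rose (log2 fold change 5.53, SE 1.42, adjusted p = 0.0387) but was lower in pool 2 and higher in the other 4. Xdh, xanthine dehydrogenase, fell (log2 fold change -0.89, SE 0.20, adjusted p = 0.0188). Nox4, the oxidase of fibroblasts, averaged 1.17 ± 0.188 CPM across CD90-negative libraries and 3.48 ± 2.50 CPM across CD90-positive libraries (SD, n = 5) and did not pass (log2 fold -1.30, adjusted p = 0.205). Of these 9 calls, those of all but Ggct were lost when some pool was left out, pool 1 for all 8 of them (adjusted p from 0.0522 for Bach1 to 0.141 for Nfe2l1), pool 2 for Nfe2l1, Ggt1 and Abcc4, pool 3 for Abcc4 and Duox2, pool 4 for all but Bach1 and Ggct, and pool 5 for Akr1b8 and Duox2. Without the block the calls of Bach1, Nfe2l1, Ggct, Abcc4, Akr1b8 and Xdh were lost, an offset for transcript length ended those of Bach1 (adjusted p = 0.114), Me1 (0.0646), Akr1b8 (0.0623) and Xdh (0.138), and the fit with no filter on low counts ended that of Nfe2l1 (0.0552).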

How the data were processed

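Libraries were made from 0.1 to 1.2 ng of total RNA (RIN 3.1 to 8.7) with a stranded SMART-Seq kit, per the labels' protocols, with 10 cDNA cycles at low input or 5 at higher input and 14 final cycles, and the input of a given library is not stated. The authors deposited estimated counts per transcript from Salmon 1.9.0, with the builds GRCm39 and mm39 named, per the submitters' processing notes. No source used here states the annotation release, strand or bias settings. The deposited TPM values of the authors were used after rescaling to nuclear protein-coding genes, for levels between genes.

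Of 144584 transcripts, 133666 (92.4%) matched a gene in GENCODE M21 by identifier, used for names, biotypes and chromosomes, and the unmatched ones held 3.63% to 12.1% of counts. Counts were summed per gene and rounded to whole numbers. The main test was edgeR 4.0.16 (R 4.3.3) with filterByExpr, TMM scaling, robust quasi-likelihood fits and the pool as a block, called at a Benjamini-Hochberg adjusted p under 0.05 over 15378 genes. DESeq2 1.42.0 and limma-voom (limma 3.58.1) were alternatives. All 36 genes are named, and values in every library are given for those called and for Nfe2l2, Keap1, Nqo1, Hmox1, Gclc, Gclm and Txnrd1. Of other pathway genes up to 4 called per list, with the smallest p, are named. Library values of Gpx2 and the uncalled pathway genes named were added after their values were seen. The members and lists were chosen with earlier results of these data known.

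Pool numbers pair libraries because both fractions of a pool name the same animals. Deviations of paired libraries correlated at 0.057, 0.004, 0.461, 0.028 and 0.188 in pools 1 to 5. Libraries of the same fraction differed far beyond sampling noise (chi-square per degree of freedom of at least 39.2), so none was treated as a duplicate. The fractions are compared within pools, and 3 of 5 pools hold several animals. The p values therefore measure how the difference between fractions varies from pool to pool, not from animal to animal. Reads without molecular identifiers are not independent molecules, so depth overstates precision. On simulated data of the same size and pairing, 100 genes were changed 2-fold and 100 changed 4-fold, at all but the lowest levels. The test recovered 16.3% of the 2-fold and 63.2% of the 4-fold changes, with 6 false among 82 calls. The data themselves gave 1980 calls, so the adjustment was less strict there, and these rates need not hold for the antioxidant genes. A call missed here is still no sign of equal levels.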

Additional observations from a re-analysis of the deposited data

Results flagged for a closer look

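In 15 cases the highest of 5 libraries in a fraction stood apart from the other 4 (Dixon's test, critical value 0.71), of 92 groups examined. Chance flags about 1 in 20 groups where values are normally distributed. That was not checked for these CPM, and groups that share libraries are not independent, so the number of flags is a description. Library 3 of the CD90-negative fraction accounted for 6 of the 15 cases. It had 78.2 CPM of Nfe2l2 (38.6 to 44.9 in the other 4), 29.5 of Srxn1 (6.80 to 11.3), 15.8 of Gpx8 (1.22 to 4.48), 14.5 of Gstm2 (1.07 to 3.61), 82.0 of Gstp1 (14.55 to 29.3) and 89.15 of Bach1 (25.05 to 42.0). That library also had the highest sum of fibroblast markers, the lowest sum of cancer epithelial markers and the lowest mitochondrial rRNA share of its fraction. Their part in these values was not tested.

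CD90-positive library 3 was high for Gpx8, at 25.1 CPM against 16.3 to 18.6, and for Sod2, at 35.6 against 26.1 to 27.9. CD90-positive library 5, with the most cancer epithelial markers and the fewest nuclear counts of its fraction, was high for Gsta4, at 30.0 CPM against 4.19 to 8.11, for Gstm1, at 14.7 against 2.38 to 4.40, and for Abcc4, at 70.9 against 7.03 to 11.8. CD90-positive library 2 had 65.5 CPM of Hmox1 against 15.4 to 24.2, and 1.02 CPM of Duox2 against at most 0.0754. CD90-positive library 4 had 1.96 CPM of Mgst2 against 0.0982 to 0.559. In the CD90-negative fraction, library 2 had 17.0 CPM of Ggt1 against 0.0594 to 4.78.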

How the results depend on the processing

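The calls depend on which pool is left out: leaving out pool 1, 2, 3, 4 or 5 kept 4, 9, 14, 6 and 11 of the 14, in that order. With 6 antioxidant genes higher and 8 lower in the main fit, leaving out a pool gave 1 to 6 higher and 3 to 8 lower. Both counts fell to 0 without pools 4 and 5 and with mitochondrial rRNA share as a covariate. A transcript length offset gave 3 and 4, a threshold of 0.01 gave 0 (11 higher at an unadjusted p under 0.05) and 4, and the unpaired fit, without the replicate block, gave 4 and 2. DESeq2 gave 9 and 9, limma-voom 8 and 7, and the fit with no filter on low counts 9 and 10. Other pathway genes, 6 higher and 3 lower, gave 1 to 4 and 0 to 5 without a pool, 3 and 0 without the block, 0 and 0 with the covariate, 1 and 0 without pools 4 and 5, and 1 and 1 at 0.01. Of all genes, 896 higher and 1084 lower, there were 308 to 820 and 367 to 1199 without a pool, 421 and 544 without the block, 0 and 0 with the covariate (490 and 392 at an unadjusted p under 0.05), 357 and 184 without pools 4 and 5, 1638 and 1814 in DESeq2, and 308 and 396 at 0.01. Thy1 kept its sign with the covariate (-4.12) but not its call. Of the 14 called genes, 14 kept the call in DESeq2, 13 in limma-voom and 6 without the block. The cause of these changes was not tested.

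Log2 folds turned sign for these genes, none of them called except Ggct and Prdx6. In limma-voom, Keap1 was 0.021, Prdx3 -0.14 and Prdx4 -0.15. With the covariate, Ggct was -0.067, Gstm1 -0.53, Gstt1 0.063, Keap1 0.36, Nqo1 2.41, Prdx5 -1.79, Prdx6 0.057 and Sod1 -0.30. Without the block, Gstm1 was -0.035, Gstt1 0.23 and Prdx3 -0.091. Without pools 4 and 5, Gpx4 was -0.11, Keap1 0.17, Prdx3 -0.52, Prdx4 -0.65, Prdx5 -0.056 and Sod1 -0.060. Leaving out a pool gave -0.11 to 0.52 for Gclm, -0.11 to 0.27 for Gpx4, -0.11 to 0.58 for Gstm1, -0.67 to 0.22 for Gstt1, -0.20 to 0.075 for Keap1, -0.34 to 0.65 for Prdx3, -0.45 to 0.61 for Prdx4, -0.26 to 0.22 for Prdx5 and -0.011 to 0.16 for Sod1.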

Other observations

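Transcript shares within a gene were compared as a description, since the authors' model divides reads among transcripts that share most of their sequence. Txnrd1-208 held 49.4% ± 16.7 of Txnrd1 counts in CD90-negative libraries and 49.7% ± 2.54 in CD90-positive ones (SD, n = 5 each), and Nfe2l2-201 held 95.0% ± 4.45 of Nfe2l2 counts in CD90-negative libraries and 95.25% ± 2.31 in CD90-positive ones. Gpx4-202 held 70.4% ± 12.65 of Gpx4 counts in CD90-negative libraries and 72.3% ± 12.3 in CD90-positive ones. Keap1-205, chosen after its values were seen, held 42.8% ± 14.8 of Keap1 counts in CD90-negative libraries and 19.6% ± 17.9 in CD90-positive ones, with SDs that overlap. Of the pathway genes, Gpx7, the relative of Gpx8 in the endoplasmic reticulum, was also chosen after its values were seen. Its log2 fold change was -1.62, it was lower in 5 of 5 pools, and it did not pass (edgeR adjusted p = 0.0648).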
